A study of Mus musculus with 12 samples.

Results

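The 10 genes followed here mark cytotoxic T cells and natural killer (NK) cells and were measured by bulk RNA-Seq of 4T1 tumours. They were chosen by name for their known roles and were the granzyme genes Gzma and Gzmb, the perforin gene Prf1, the granule gene Nkg7, the cytokine gene Ifng, the CD8 chain genes Cd8a and Cd8b1, and the receptor genes Klrk1, Klrd1 and Ncr1. These were 10 of the 35944 genes to which the deposited transcripts could be matched, and 10 of 10 passed the filter of at least 10 reads in at least 3 libraries, which kept 15459 genes. The study asked how miRNAs carried by endothelial extracellular vesicles (EVs), membrane vesicles that cells release, act on tumour growth and on the immune cells of the tumour. Female BALB/c mice aged 6 to 8 weeks were given 100000 4T1 cells, a mouse mammary carcinoma line derived from that strain, under the skin of the right flank. EVs of MS-1 cells, a mouse endothelial cell line, were electroporated with a miRNA mimic and injected beside the tumour every 2 days from day 5, in doses of 3 µg, and RNA was taken from the tumours on day 21. The 4 groups held 3 tumours each. The control (ctrl) mimic was cel-miR-67, a miRNA of worms that mice lack, and the 3 other mimics were those of mouse miR-222-3p, miR-183-5p and miR-142-5p.

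All 12 tumours therefore received electroporated EVs, so ctrl is not an untreated tumour, and each group differs from ctrl by the mimic alone as far as the labels say. A transplanted line under the skin is also not a mammary tumour that arose in its own gland. Nothing in the labels says whether tumours of a group shared a batch of EVs, and the p-values below measure the spread between these tumours.

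Cytotoxic T cells and NK cells kill by releasing granules onto a target cell. Perforin opens the membrane, granzymes enter and start cell death, and NKG7 helps the granules to fuse with the cell surface. CD8 T cells read peptides on MHC class I through their T cell receptor, with CD8 as co-receptor. NK cells instead weigh activating receptors such as NKG2D (Klrk1) and NKp46 (Ncr1) against inhibitory ones. CD94 (Klrd1) is a chain of receptors of both kinds. Both cell types secrete interferon gamma (Ifng), which raises antigen presentation and calls further lymphocytes into the tumour.

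The mature mouse miRNAs after which the groups are named are shown as annotated, which need not be letter for letter the synthetic mimics that were injected. RefSeq, on GRCm38.p6, lists each mouse form with the seed, bases 2 to 8 of the miRNA, given here in capitals. The 3 seeds differ, so the 3 miRNAs belong to different seed families.
mmu-miR-142a-5p: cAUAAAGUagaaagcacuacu
mmu-miR-183-5p: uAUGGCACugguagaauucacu
mmu-miR-222-3p: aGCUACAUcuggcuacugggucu
These mature sequences lie at chr11:87756867-87756887 on the plus strand, chr6:30169711-30169732 on the minus strand and chrX:19146901-19146923 on the minus strand. The 3′ UTRs of the 10 genes were searched for the complement of each seed. Cd8a held 1 match for miR-222-3p and Klrk1 held 1 match for miR-142-5p, while 0 of 10 genes held one for miR-183-5p. A match was present in 11.7% (miR-222-3p), 17.0% (miR-142-5p) and 11.3% (miR-183-5p) of the 14600 tested genes with an annotated 3′ UTR. The sites are printed with the matching bases in capitals.
Cd8a: ggcatggaATGTAGCctgtacta
Klrk1: ccatcaacACTTTATtttataag
The Cd8a match is at chr6:71378087-71378093 on the plus strand, and that of Klrk1 is at chr6:129610613-129610619 on the minus strand, in the Klrk1 transcript with the longest 3′ UTR, of 2463 bases. In miR-222-3p tumours the log2 fold change of Cd8a against ctrl was 0.31 (SE 0.34), and in miR-142-5p tumours that of Klrk1 was -0.0048 (SE 0.29). The level of neither gene was lower beyond its error in tumours that received the matching miRNA.

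The libraries held between 20285968 and 27021401 estimated reads. They form 2 sets that the labels do not name, told apart by the share of reads given to the pseudogene Gm28661 rather than to its mitochondrial copy. The smaller set holds 4 libraries, those of all 3 miR-222-3p tumours with tumour 3 of the miR-183-5p group, so that the set and the miR-222-3p group cannot be told apart. Tumour 3 of the miR-142-5p group stood apart on B cell genes. For that tumour and for miR-183-5p tumour 3, values without them are given beside the main results they moved. Markers of the labelled tissue were present in every library. The summed TPM (a transcript's share of all transcripts after division by its length, scaled to the same total in every library) of 5 tumour epithelial genes was between 1265 and 1855.

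The 10 genes were all detected, and their levels spanned a wide range. By median TPM over the 12 tumours, Gzmb was highest at 38.4, followed by Nkg7 at 24.7. Klrd1 (16.8), Klrk1 (15.6), Prf1 (12.4), Gzma (12.1) and Cd8a (10.3) lay close together, and their ranges over tumours overlapped. Cd8b1 was at 6.33, Ifng at 2.40 and Ncr1 at 0.77. Gzmb thus stood above 73.7% of tested genes and Ncr1 above 14.7%. Ncr1 rested on 7 to 54 reads per library and had at least 10 reads in 10 of 12 libraries, so its values carry the largest counting error. The other genes had at least 10 reads in every library.

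The granule genes varied several-fold between tumours of the same group. Values below are normalised read counts, the estimated reads of a gene after division by a factor for library size and transcript length. Gzmb (chr14:56258838-56262260), the granzyme that starts caspase-driven death, was at 693, 598 and 1303 in ctrl tumours 1 to 3, at 991, 1205 and 514 in miR-142-5p, at 854, 1144 and 359 in miR-183-5p and at 1049, 714 and 509 in miR-222-3p tumours. The highest tumour was a ctrl tumour, the lowest was miR-183-5p tumour 3, and the ranges of all 4 groups overlapped. The group means ran from 903 ± 354 (SD, n = 3) in miR-142-5p through 865 ± 382 in ctrl and 786 ± 397 in miR-183-5p to 757 ± 273 in miR-222-3p, and no neighbours in that order were farther apart than these SDs.

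Prf1 (chr10:61297833-61304680), which encodes perforin, had a wider spread than Gzmb. It was at 543, 263 and 1139 in ctrl, at 605, 1179.6 and 377 in miR-142-5p, at 606, 432 and 197 in miR-183-5p and at 798, 314 and 367 in miR-222-3p tumours. One tumour of each of the ctrl, miR-142-5p and miR-222-3p groups was high, and all groups overlapped. Gzma (chr13:113093825-113100981), a second granzyme with other substrates, was tight in ctrl at 131, 117 and 153. It was at 212, 128 and 111 in miR-142-5p and at 129.7, 164 and 141 in miR-222-3p tumours. The miR-183-5p group held the 2 highest values and the lowest of all 12, at 304, 257 and 43.9. Its mean of 202 ± 139 (SD, n = 3) therefore did not stand above the 134 ± 18.0 of ctrl beyond the spread. That spread rested on tumour 3, without which the log2 fold change of Gzma against ctrl was 1.06 (SE 0.29, DESeq2 adjusted p = 0.807). With tumour 1 or tumour 2 of that group left out instead, it was 0.17 or 0.38.

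Nkg7 (chr7:43437073-43438249) was at 293, 189 and 261 in ctrl, at 255, 352 and 355 in miR-142-5p, at 248, 282 and 96.0 in miR-183-5p and at 283, 344 and 189.7 in miR-222-3p tumours. Apart from miR-183-5p tumour 3, these values lay within a narrow band. Ifng (chr10:118441046-118445892) was low throughout, at 38.1, 60.7 and 26.9 in ctrl, at 35.5, 30.5 and 37.9 in miR-142-5p, at 34.0, 56.6 and 44.98 in miR-183-5p and at 47.8, 97.5 and 33.7 in miR-222-3p tumours. Its highest value, in miR-222-3p tumour 2, came with a Gzmb level near the median of the 12 tumours and with one of the lowest levels of Prf1.

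The CD8 chain genes lie next to each other on chromosome 6, Cd8b1 at 71322788 to 71337494 and Cd8a at 71373427 to 71379173. Cd8a was at 461, 389.7 and 388 in ctrl, at 412, 536 and 906 in miR-142-5p, at 436, 512 and 246 in miR-183-5p and at 622, 601 and 311 in miR-222-3p tumours. Cd8b1, whose chain pairs with that of Cd8a on most CD8 T cells, was at 146, 109.7 and 119.7 in ctrl, at 139.6, 162 and 394 in miR-142-5p, at 134, 152 and 81.1 in miR-183-5p and at 175, 201 and 111 in miR-222-3p tumours. Both were highest in miR-142-5p tumour 3 and lowest in miR-183-5p tumour 3, and each treated group overlapped ctrl. In RNA of whole tumours, fewer cells of a type and less RNA per cell cannot be told apart.

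The receptor genes Klrd1 and Klrk1 are also neighbours on chromosome 6, at 129591782 to 129598775 and 129610323 to 129623864. Klrk1 varied least of the 10, by 2.47-fold between the highest and the lowest tumour. It was at 371, 461 and 343 in ctrl, at 381, 440.0 and 350.1 in miR-142-5p, at 263, 357 and 249 in miR-183-5p and at 436, 490.1 and 198 in miR-222-3p tumours. Klrd1 was at 149, 82.9 and 136 in ctrl, at 102, 194 and 163 in miR-142-5p, at 138, 143 and 47.3 in miR-183-5p and at 190.1, 154 and 82.6 in miR-222-3p tumours. Tumours 3 of the miR-183-5p and miR-222-3p groups were the lowest or among the lowest for both receptors. Ncr1 (chr7:4337724-4345164), the receptor gene closest to a defining marker of NK cells in mice, varied most, by 8.54-fold. It was at 9.38, 11.9 and 44.6 in ctrl, at 19.7, 60.9 and 27.6 in miR-142-5p, at 9.33, 15.4 and 18.0 in miR-183-5p and at 23.4, 7.13 and 11.2 in miR-222-3p tumours. A single tumour was high in the ctrl and in the miR-142-5p group, and each treated group overlapped ctrl.

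**Figure D1:**
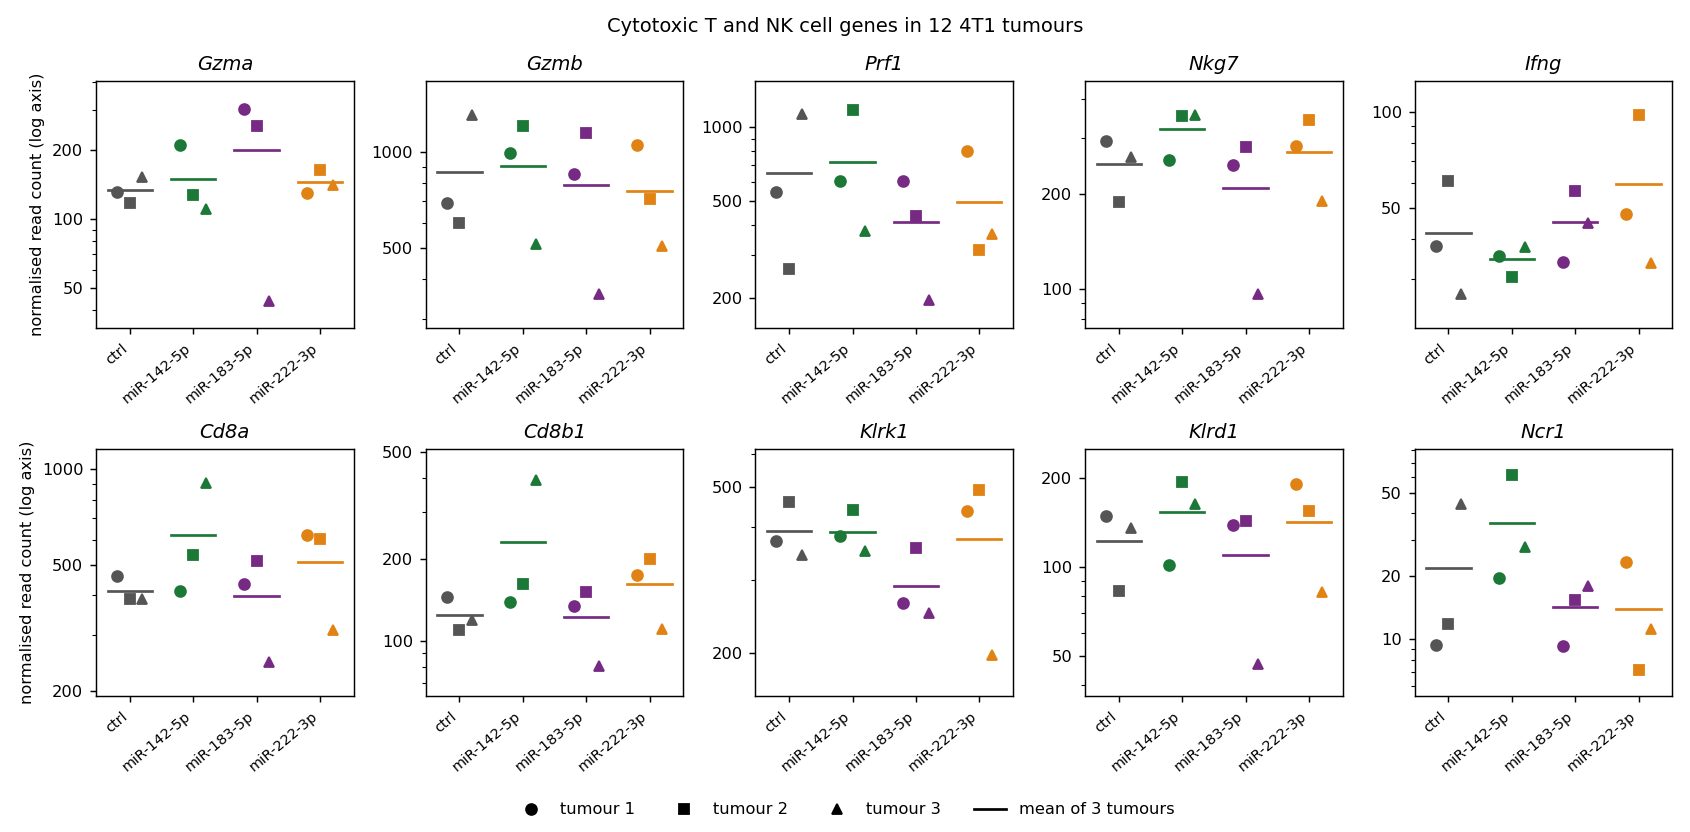
Normalised read count of each gene on a log axis, by group, with 1 symbol per tumour and a line at the mean of 3 tumours. Each treated group overlaps ctrl in all 10 panels, and miR-183-5p tumour 3 is the lowest of the 12 tumours in 7 of them.

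Whether the genes changed with treatment was tested for each group against the same 3 ctrl tumours. After miR-142-5p-EVs, 8 of the 10 genes had a higher mean than in ctrl and 2 a lower one, but 0 of 10 passed an adjusted p of 0.05 (DESeq2 Wald test, Benjamini-Hochberg over all genes tested), where 0.00649% of all genes did. With edgeR's quasi-likelihood test the number was also 0. At an unadjusted p under 0.05 there was 1 gene with either tool, against 3.56% of all genes with DESeq2. It was Cd8b1, at 232 ± 141 (SD, n = 3) against 125 ± 18.6 in ctrl, a log2 fold change of 0.89 (SE 0.39, DESeq2 adjusted p = 1) or 1.86-fold with a 95% interval of 1.09 to 3.15. It was higher than the ctrl mean in 3 of 3 tumours, and without miR-142-5p tumour 3 the log2 fold change was 0.27. Cd8a, at 0.58 (SE 0.34), likewise fell to 0.20 without that tumour. Groups without overlap numbered 0 among the 10 genes, against 6.07% of all genes.

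After miR-183-5p-EVs the balance was the other way, with 2 genes higher and 8 lower than in ctrl. Again 0 of 10 passed with DESeq2 or with edgeR, against 0% of all genes, and 0 of 10 had an unadjusted p under 0.05 with either tool, against 3.22% of all genes with DESeq2. Separation from ctrl was found in 0 of the 10, against 9.17% of all genes. The largest differences were -0.66 (SE 0.67) for Prf1, -0.63 (SE 0.71) for Ncr1 and 0.59 (SE 0.49) for Gzma on the log2 scale. The Prf1 and Ncr1 differences rested on ctrl tumour 3, without which they were 0.032 and 0.42. Klrk1 had the lowest p-value, with -0.43 (SE 0.29, DESeq2 adjusted p = 0.9998), and 1 of 3 treated tumours lay within the range of ctrl. For 5 genes and for the median the direction changed without miR-183-5p tumour 3. Without it the median log2 fold change of the 10 genes went from -0.15 to 0.15, against a median of -0.011 for all tested genes, and Gzmb, Nkg7, Cd8a, Cd8b1 and Klrd1 each changed sign. Leaving out a ctrl tumour also turned some of these, Gzmb without ctrl tumour 3 (0.28) and Cd8a (0.033), Cd8b1 (0.095) and Klrd1 (0.0048) without ctrl tumour 1. In the fit without miR-183-5p tumour 3, Gzma was at 1.06 (SE 0.29, DESeq2 adjusted p = 0.807). It was then the 1 gene of the 10 with an unadjusted p under 0.05, against 1.8% of all genes. With miR-183-5p tumour 1 or tumour 2 left out instead, Gzma was at 0.17 or 0.38.

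After miR-222-3p-EVs, 6 genes were higher and 4 lower than in ctrl. The number past the threshold was 0 of 10 with DESeq2 and with edgeR, against 0.026% of all genes with DESeq2, and 0 of 10 had an unadjusted p under 0.05 with either tool, against 2.29%. No gene separated from ctrl, against 5.5% of all genes. Ifng showed 0.51 (SE 0.45), which became -0.04 without tumour 2, and Ncr1 showed -0.66 (SE 0.71), which became 0.39 without ctrl tumour 3. For Cd8a the difference was 1.24-fold with a 95% interval from 0.784 to 1.95.

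**Figure D2:**
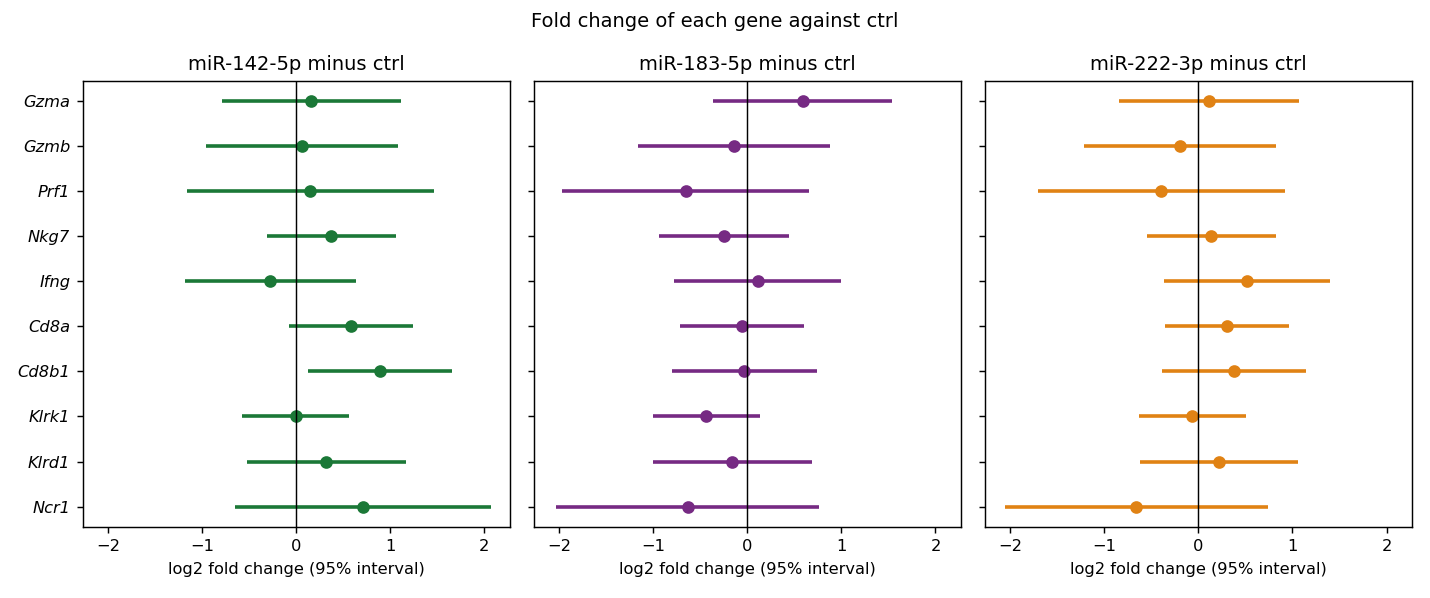
Log2 fold change of each gene against ctrl for the 3 treatments, as a point with its 95% interval from DESeq2. Of the 30 intervals 29 include 0, the exception being Cd8b1 in miR-142-5p tumours, whose adjusted p-value was 1.

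The treated groups were also compared with each other. Between miR-183-5p and miR-142-5p tumours, 8 genes were lower in the former, with a median log2 fold change of -0.55 against -0.0027 for all genes. Without tumour 3 of both groups the median of the 10 genes was -0.11. The counts that follow are with all tumours. The number past the threshold was 0 of 10 with DESeq2 and edgeR, against 0.0519% of all genes, and 1 gene had an unadjusted p under 0.05 with either tool, against 7.95% of all genes with DESeq2. This was Cd8b1 at -0.92 (SE 0.39, DESeq2 adjusted p = 0.467). Without tumour 3 of both groups it was -0.08 (SE 0.32, DESeq2 adjusted p = 0.9998), and Cd8a, at -0.64 (SE 0.34) with them, was -0.0015 (SE 0.31). Ncr1 showed the largest difference of -1.34 (SE 0.70, DESeq2 adjusted p = 0.655), and it was the 1 gene whose values did not overlap, a state found in 12.3% of all genes in this comparison. The nearest tumours, miR-183-5p tumour 3 and miR-142-5p tumour 1, had 18 Ncr1 reads each. They stood apart, at 18.0 and 19.7, only after normalisation. Between miR-183-5p and miR-222-3p tumours and between miR-142-5p and miR-222-3p tumours, 0 of 10 genes passed with either tool (0.0324% and 0.0389% of all genes with DESeq2), 0 of 10 had an unadjusted p under 0.05 (3.24% and 3.59%) and 0 of 10 separated (9.06% and 6.2%). In the last comparison Ncr1 differed by 1.37 (SE 0.70, DESeq2 adjusted p = 0.9999).

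Most of the variation in these genes lay between tumours of the same group. On the log2 scale the SD within groups was between 0.41 (Klrk1) and 0.89 (Ncr1), with a median of 0.59 over the 10 genes, whereas the median over all tested genes was 0.24. The SD of the 4 group means was smaller than the SD within groups for each of the 10, from 0.07 (Gzma) to 0.62 (Ncr1). Means of 3 tumours vary less than single tumours even where groups do not differ, so this is a description and not a test. With 3 tumours per group, the standard errors of the log2 fold changes against ctrl were 0.29 to 0.71.

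Single tumours carried much of that spread. Relative to the median of 12 tumours, the median of the 10 genes was -0.99 on the log2 scale in miR-183-5p tumour 3 and -0.52 in miR-222-3p tumour 3, and between -0.38 and 0.37 in the 10 others. In miR-183-5p tumour 3, Gzma, Gzmb, Prf1, Nkg7, Cd8a, Cd8b1 and Klrd1 were the lowest of all tumours, but Ifng and Ncr1 were slightly above their medians. The summed TPM of 13 T cell receptor complex genes was also lowest there, at 36.1 against 48.7 to 291 elsewhere, as were 6 macrophage genes (899 against 1185 to 2122) and 6 mast cell genes (5.03 against 7.69 to 19.8). The 5 neutrophil genes, at 2206, and the 4 fibroblast genes, at 756, were second highest, and the 5 tumour epithelial genes, at 1439, were close to their median. The part of these cell types and of the library set in the low values was not tested.

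The miR-142-5p tumour 3 differed in another way. It had the highest Cd8a, Cd8b1 and Nkg7, but its Gzmb (514), Prf1 (377) and Gzma (111) were below the ctrl means, and Cd4, the co-receptor gene of helper T cells, was at 549 against 31.3 to 129 in the 11 other tumours. Its 9 B cell genes summed to 771 TPM, against 18.3 to 33.2 elsewhere, and 5 lymphoid organiser genes, among them Ccl21a and the high endothelial venule gene Glycam1, summed to 718 TPM against at most 6.81 elsewhere. Glycam1 itself was at 275 TPM there and listed at 0 in the other tumours. The T cell receptor complex genes summed to 291 TPM, against 53.9 and 83.6 in the other miR-142-5p tumours. All 13 of these genes were higher than in ctrl, 9 with an unadjusted p under 0.05, against 3.56% of all genes, and 0 with an adjusted one (DESeq2; 0 with edgeR). Without that tumour 10 of the 13 were higher and 0 had an unadjusted p under 0.05, against 3.06% of all genes. The part of these cells in the Cd8a and Cd8b1 values was not tested.

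**Figure D3:**
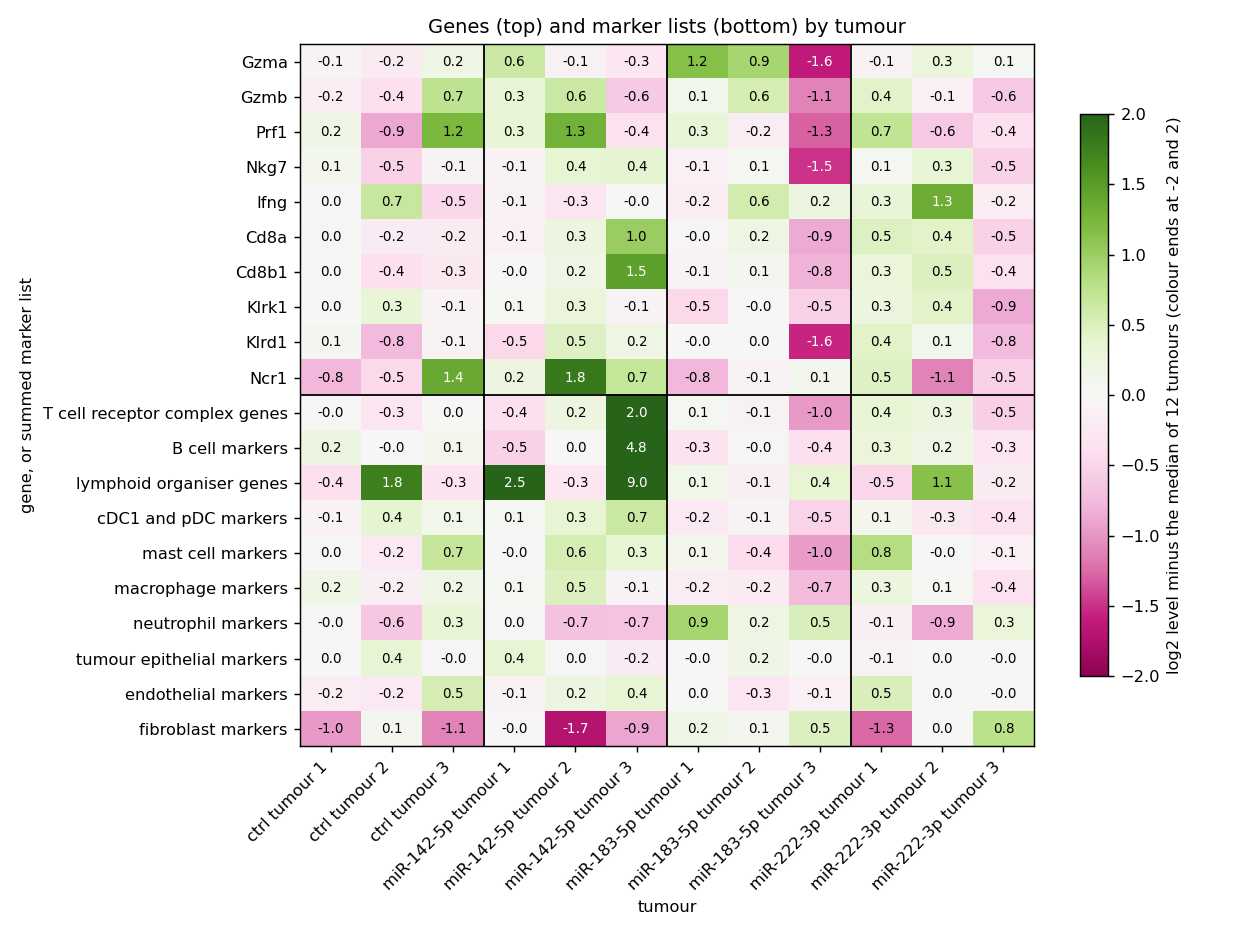
Level of each gene (top) and of each summed marker list (bottom) in each tumour, as the difference from the median of 12 tumours on the log2 scale, with colours ending at -2 and 2. The column of miR-183-5p tumour 3 is low for most genes and for T cell, mast cell and macrophage lists, and that of miR-142-5p tumour 3 is high for Cd8a, Cd8b1, T cell, B cell and lymphoid organiser rows but not for Gzmb, Prf1 or Gzma.

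To set the genes against other lymphocytes within a tumour, ratios of TPM values were formed, with 0.1 added to each TPM. The ratio of Cd8a to Cd4 was at 6.42, 8.78 and 3.35 in ctrl, at 6.83, 4.25 and 1.51 in miR-142-5p, at 7.68, 5.44 and 5.31 in miR-183-5p and at 4.32, 7.84 and 8.18 in miR-222-3p tumours. Cd8a thus exceeded Cd4 in all 12 tumours, least in miR-142-5p tumour 3. On the log2 scale the ratio differed from ctrl by -0.70, 0.08 and 0.18 for the miR-142-5p group, the miR-183-5p group and the miR-222-3p group (p = 0.5, 1 and 0.7, exact permutation tests on both sides). Without miR-142-5p tumour 3 the first of these was -0.09. The ratio of Ncr1 to Cd8a, which sets an NK cell gene against a CD8 T cell gene, differed by 0.31, -0.19 and -0.67 (exact p = 0.8, 0.7 and 0.6). Adjusted over these 6 comparisons the lowest p-value was 0.96 (exact permutation tests), and with 3 against 3 tumours no p-value could be under 0.1. The effective length of Cd4, by which its TPM is divided, ran from 1065 to 2906 bases between libraries, and its part in the ratio was not tested.

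**Figure D4:**
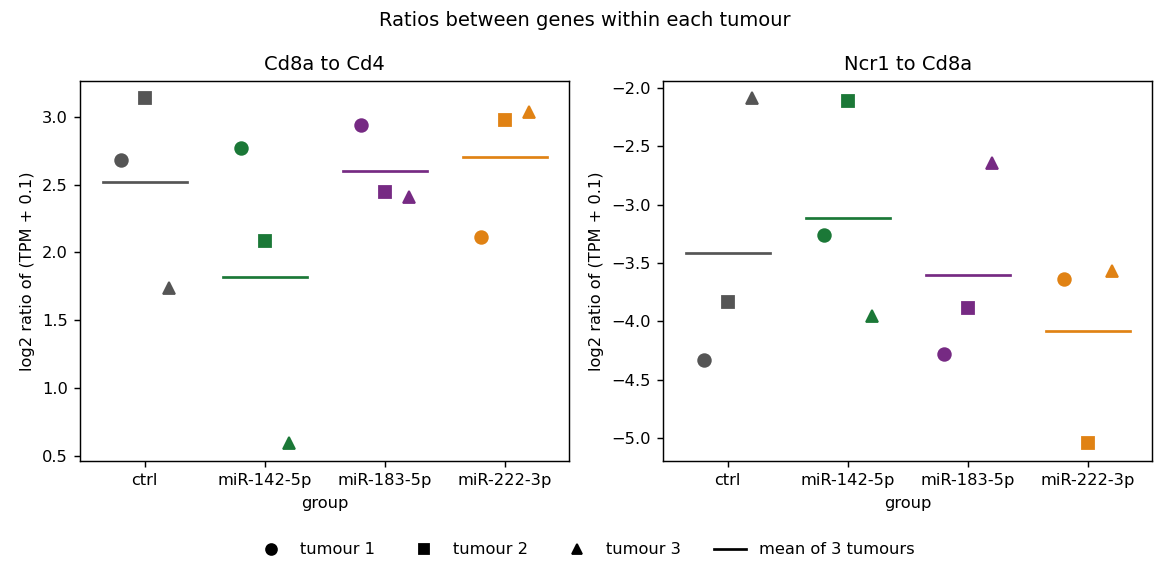
Log2 ratio of Cd8a to Cd4 (left) and of Ncr1 to Cd8a (right) in each tumour, from TPM with 0.1 added, with 1 symbol per tumour and a line at the mean of 3. The lowest Cd8a to Cd4 value is that of miR-142-5p tumour 3, at 0.59, and all treated groups overlap ctrl in both panels.

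Within tumours, other ratios described how the genes went together. The ratio of Cd8b1 to Cd8a stayed between 0.558 and 0.858, the highest value being that of miR-142-5p tumour 3. The ratio of Gzmb to Cd8a ran from 1.16 in that tumour to 6.82 in ctrl tumour 3. That ctrl tumour also had high Prf1 and Ncr1 and unremarkable Cd8a, and miR-142-5p tumour 2 and miR-222-3p tumour 1 resembled it in Prf1. These 3 tumours held the 3 highest sums of mast cell genes, at 17.8, 16.3 and 19.8 TPM, against 5.03 to 14.0 in the others. Mast cells can also express Gzmb, and their part in its level was not tested.

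Correlations over the 12 tumours were computed for the 45 pairs of genes on log2 normalised counts. Pearson's r was positive in 39 pairs, with a median of 0.40, and 5 pairs passed an adjusted permutation p of 0.05. The closest pair was Cd8a with Cd8b1, with r = 0.96 and Spearman's rho = 0.97 (permutation p = 1e-05 for each, the smallest that 100000 resamples can give, adjusted p = 0.00045), and r was 0.93 without the 2 tumours farthest from the median. Nkg7 went with Klrd1 (r = 0.94, rho = 0.92, permutation p = 3e-05 and 7e-05, adjusted p = 0.000675 and 0.00105) and with Cd8a (r = 0.86, rho = 0.87, permutation p = 0.00028 and 0.00035, adjusted p = 0.0042 and 0.00262). Without the 2 farthest tumours these were 0.83 and 0.84.

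Gzmb went with Prf1 (r = 0.85, rho = 0.83, permutation p = 0.00048 and 0.00152, adjusted p = 0.0054 and 0.00977), and Cd8a with Klrd1 (r = 0.83, rho = 0.92, permutation p = 0.00061 and 0.00012, adjusted p = 0.00549 and 0.00117). Without the 2 farthest tumours r was 0.74 and 0.85. In contrast, Gzmb and Cd8a had r = 0.31 and Prf1 and Cd8b1 had r = 0.15. Ifng had r from -0.59 to 0.47 with the other genes, with -0.03 against Gzma and -0.58 against Ncr1. The lowest was against Prf1 (rho = -0.62, permutation p = 0.0399 and 0.0351, adjusted p = 0.138 and 0.197). For that pair r was -0.86 in the larger library set (adjusted exact permutation p = 0.151). Without miR-142-5p tumour 3 and miR-183-5p tumour 3 it was -0.71 (adjusted permutation p = 0.0827). Within the 8 libraries of the larger set, only Cd8a with Cd8b1 passed (r = 0.98, adjusted exact permutation p = 0.00558), and the 4 libraries of the smaller set were too few for a value. With deviations from the group means 0 of these 5 pairs passed, the lowest adjusted permutation p among them being 0.0694, while r was 0.95 for Cd8a with Cd8b1, 0.95 for Nkg7 with Klrd1 and 0.86 for Gzmb with Prf1. The 1 pair that passed was Nkg7 with Cd8b1 (r = 0.72, adjusted permutation p = 0.0347). Here values were permuted only within groups of 3 tumours, which allows few orders. The unadjusted permutation p of this pair, 0.00077, was the smallest that these orders can give. The count of pairs that passed therefore cannot be set against the 5 of the main test. In the larger set r was 0.91 for Nkg7 with Klrd1, 0.76 for Nkg7 with Cd8a, 0.78 for Gzmb with Prf1 and 0.58 for Cd8a with Klrd1.

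**Figure D5:**
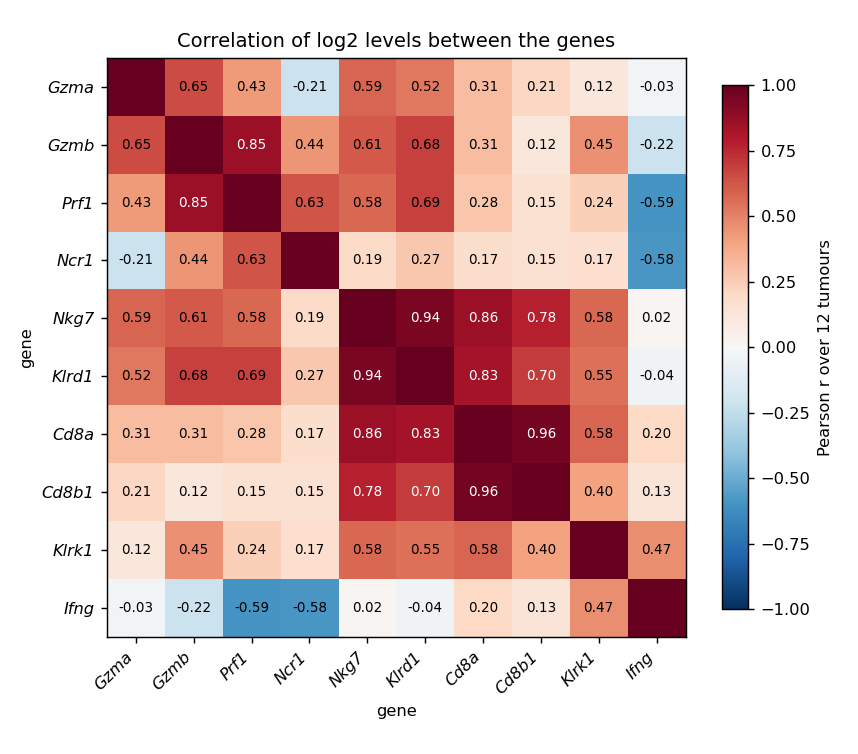
Pearson correlation of log2 normalised counts over 12 tumours for each pair of genes, with the value written in each cell. Nkg7, Klrd1, Cd8a and Cd8b1 form the block of highest values, from 0.70 to 0.96, Gzmb and Prf1 form a second pair at 0.85, and the Ifng row runs from -0.59 to 0.47.

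The genes whose log2 level was most like the mean standardised level of the 10 over the 12 tumours, among genes with a mean normalised count of at least 50, were Galnt4 (r = 0.96), Cd38 (0.93), Zfp839 (0.93), Lmo2 (0.92) and Prpf38b (0.91). These are descriptions of 12 points that include miR-183-5p tumour 3, the lowest of the 12 for Galnt4 (319), Cd38 (1064), Zfp839 (349.7), Lmo2 (357) and Prpf38b (3589).

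The promoters of the 10 genes were searched for letters bound by factors that act in cytotoxic lymphocytes. RefSeq on GRCm38.p6 gave a promoter for 8 of the 10 genes. In the 250 bases before the start, the RUNX letters TGTGGT, or ACCACA on the other strand, were present in Gzma, Gzmb, Prf1, Nkg7, Klrk1 and Ncr1, which is 6 of 8, against 15.9% of 27025 genes. Cd8a, Cd8b1, Klrd1 and Ifng had no such match or no listed promoter. The T-box letters GGTGTG, or CACACC, were present in 1 of 8, Nkg7, against 18.3%. The part of either set of letters in the correlations was not tested. Windows from the granule genes are shown with the matching letters in capitals.
Gzmb: tgtgggttctgcTGTGGTtacttcatgatt
Gzma: gagaagaacaaaACCACAtcctttgcactc
Prf1: tgggaacctgtgACCACActctgggggcag
Nkg7: gggcccacccctACCACAtaggaggagagg
They lie at chr14:56262351-56262380 (minus strand), chr13:113101014-113101043 (minus strand), chr10:61297694-61297723 (plus strand) and chr7:43437043-43437072 (plus strand). A match of letters is a description of the sequence and not a measured binding site.

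Genes around the 10 were examined as 7 lists of 112 genes with related roles, of which 96 passed the count filter. Against ctrl, 0 of the 96 passed the threshold in any of the 3 comparisons with DESeq2 or edgeR. At an unadjusted p under 0.05 (DESeq2), 7 were higher and 3 lower in miR-142-5p tumours, 1 was higher and 3 lower in miR-183-5p tumours, and 0 were higher and 1 lower in miR-222-3p tumours. The shares of all genes at that level were 3.56%, 3.22% and 2.29%. Without miR-142-5p tumour 3 the count in that group became 1 higher and 1 lower, and without miR-183-5p tumour 3 the count in that group became 0 higher and 1 lower. The signs were even in miR-142-5p tumours (48 higher, 48 lower), while in miR-183-5p (24 and 72) and miR-222-3p tumours (31 and 65) most were lower.

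Among 20 other granule and killing genes the median log2 fold changes were 0.18 after miR-142-5p-EVs, -0.12 after miR-183-5p-EVs and -0.08 after miR-222-3p-EVs, the order kept for the lists that follow. Stxbp2, which helps granules to fuse, had the lowest p-value in miR-142-5p tumours at 4009.6 ± 129 (SD, n = 3) against 3525 ± 42.6 in ctrl (log2 fold change 0.19, SE 0.09, DESeq2 adjusted p = 1). The other 2 named by the same rule were Srgn, the core protein of the granule proteoglycan, at 0.31 (SE 0.18) in miR-183-5p, and Stx11, a granule fusion protein, at -0.30 (SE 0.21) in miR-222-3p tumours.

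The 16 other NK and killer lectin-like receptor genes had medians of 0.24, -0.22 and -0.06, and all 16 were lower than in ctrl in miR-183-5p tumours. Without miR-183-5p tumour 3, 6 of the 16 were higher, with a median of -0.07. The 6 macrophage genes were also all lower in that group, with a median of -0.45 (-0.30 without tumour 3) and 2 at an unadjusted p under 0.05, and their part in the adaptor and receptor values was not tested. Hcst, an adaptor through which NKG2D signals, was at 65.4, 76.9 and 145 in miR-142-5p tumours against 67.2, 34.7 and 53.1 in ctrl (log2 fold change 0.89, SE 0.44, DESeq2 adjusted p = 1), and the change was 0.46 without miR-142-5p tumour 3. Tyrobp, an adaptor shared with macrophages and neutrophils, was at 2575, 2527 and 2287 in miR-183-5p tumours against 3396, 2637 and 3048 in ctrl (-0.30, SE 0.15, DESeq2 adjusted p = 0.9998). Without miR-183-5p tumour 3 its log2 fold change was -0.25 (SE 0.17, DESeq2 unadjusted p = 0.146). Klrc2, which encodes a CD94 partner, had 0.55 (SE 0.51) in miR-222-3p tumours. Of the 22 receptor genes listed, 6 were under the filter, and Klra8 had no read in any library.

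Ligands of the receptors, which tumour and myeloid cells display, had medians of -0.14, -0.07 and -0.17 over 10 genes. Pvr, a ligand of the activating receptor DNAM-1, was at 1907 ± 201 (SD, n = 3) in miR-142-5p tumours against 2231 ± 151 in ctrl (-0.23, SE 0.11, DESeq2 adjusted p = 1). Ulbp1, a ligand of NKG2D, was at 569.8, 528 and 378 in miR-222-3p tumours against 529, 1044 and 578 in ctrl (-0.54, SE 0.27, DESeq2 adjusted p = 0.99996). A single ctrl tumour lay far above the rest for Ulbp1. Cd48, the ligand of 2B4, had -0.40 (SE 0.25) in miR-183-5p tumours.

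Cytokines and their receptors had medians of -0.03, -0.19 and -0.03 over 12 genes. Il21r was at 280.1, 412 and 1329 in miR-142-5p tumours against 379, 227 and 347 in ctrl (1.08, SE 0.43, DESeq2 adjusted p = 1). The log2 fold change was 0.12 without miR-142-5p tumour 3, the tumour with high B cell genes. B cells also carry this receptor, and their part in the value was not tested. Il2ra, named after its values were seen, had the same shape at 132, 104 and 277. Il15, a survival factor of NK and CD8 T cells, had -0.46 (SE 0.24) in miR-183-5p and Il27 had -0.49 (SE 0.31) in miR-222-3p tumours.

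Of 7 transcription factor genes, 3 had an unadjusted p under 0.05 in miR-142-5p tumours, each higher than in ctrl, against 3.56% of all genes, and without miR-142-5p tumour 3 there were 0, against 3.06%. Eomes, a T-box factor of memory CD8 T and NK cells, was at 45.2, 103 and 203 against 45.7, 48.7 and 63.1 in ctrl (1.16, SE 0.48, DESeq2 adjusted p = 1). Stat4, named after its values were seen, was at 48.9, 75.6 and 264 against 75.0, 38.3 and 53.1 (1.24, SE 0.53, DESeq2 adjusted p = 1). Both were highest in miR-142-5p tumour 3, and without it their log2 fold changes were 0.49 and 0.19. Tbx21, the gene of T-bet, also named after its values were seen, did not overlap ctrl, a state of 6.07% of all genes, at 47.6, 40.3 and 53.5 against 33.6, 23.4 and 22.1 (0.85, SE 0.40, DESeq2 adjusted p = 1), and was at 0.74 without that tumour. Prdm1, the gene of BLIMP-1, had 0.47 (SE 0.23) in miR-183-5p and 0.44 (SE 0.23) in miR-222-3p tumours.

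Recruitment genes, chemokines and their receptors, had medians of 0.00, -0.25 and 0.10 over 11 genes. The lowest p-value over the 7 lists was that of Cx3cr1, a chemokine receptor of effector T cells, NK cells and monocyte-derived cells, at 1575, 1489 and 1075 in miR-183-5p tumours against 2529, 2039.9 and 2254 in ctrl (-0.72, SE 0.28, DESeq2 adjusted p = 0.9998). The groups did not overlap, as in 9.17% of all genes, and the macrophage genes given above were lower in the same tumours. Without miR-183-5p tumour 3 the log2 fold change of Cx3cr1 was -0.57 (SE 0.31, DESeq2 unadjusted p = 0.061). Cxcl10, which draws CXCR3-bearing T cells, had -0.58 (SE 0.33) in miR-142-5p, and Cxcr6 had 0.43 (SE 0.31) in miR-222-3p tumours.

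The receptor and response genes of interferon gamma, 20 in number, had medians of -0.33, -0.13 and -0.28, with 3, 3 and 1 of the 20 higher than in ctrl. Gbp4, a guanylate-binding protein gene, was at 8362, 9014 and 9789 in miR-142-5p tumours against 13768, 17323 and 10539 in ctrl (-0.62, SE 0.28, DESeq2 adjusted p = 1). Cd274, the gene of PD-L1, named after its values were seen, was at 2262, 1926 and 2102 in the same tumours against 2622, 2686 and 2871 (-0.38, SE 0.18, DESeq2 adjusted p = 1). Iigp1, an interferon-induced GTPase gene, had -0.50 (SE 0.23) in miR-183-5p and -0.45 (SE 0.23) in miR-222-3p tumours. The 3 comparisons share the ctrl tumours, so their signs are not independent of each other, and ctrl tumour 2 held the highest sum of this list, 4244 TPM against 2279.9 to 3719 in the 11 others.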

How the data were processed

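RNA was taken from 12 4T1 tumours, with 1 polyadenylated, strand-specific library per tumour and paired reads. Groups follow the sample labels. The authors mapped the reads with Salmon to annotated mouse transcripts. The deposited tables give, per transcript, the estimated count of reads, the TPM and the effective length in bases. The Ensembl release differs between the methods and the file names (the build in the labels is GRCm38), and 116710 of 118783 transcripts (98.3%) were matched here, without version, to GENCODE M21. Unmatched transcripts held at most 0.671% of a library's reads.

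Per gene, the estimated counts were added up and rounded, with transcript length as an offset, and tested with DESeq2 1.42.0 (Wald test) in R 4.3.3, as the study's methods use DESeq2, in 1 fit of 12 libraries. Benjamini-Hochberg adjustment covered 15413 genes. The scripts were tested on simulated data. edgeR 4.0.16 (quasi-likelihood test) and the settings of the closing section were alternatives. Levels between genes were compared as deposited TPM. Permutation tests used Python 3.11.15 and scipy 1.17.1, and figures matplotlib 3.10.9. Counts of libraries within groups differed beyond sampling noise (chi-square per degree of freedom 13.6 to 58.9).

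Named genes were the 10 genes, Cd4 and Cd3e, called genes and the gene with the lowest p-value of each list and comparison against ctrl, and the 5 genes most alike. The 10 genes, the lists and the tests were chosen with earlier results of these data known.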

Additional observations from a re-analysis of the deposited data

How the results depend on the processing

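In 87 recomputations of the number of the 10 genes past the threshold, over edgeR, other scalings and filters, pairs of groups, library sets and left-out tumours, the highest number was 0. The lowest adjusted p (DESeq2) of any of the 10 genes was 0.0797, between miR-183-5p and miR-142-5p tumours without miR-142-5p tumour 1. Of 437 recomputed fold changes against ctrl 48 changed sign, 35 of them with a tumour left out, and 0 passed the threshold, the lowest adjusted p being 0.251, for Cd8b1 in miR-142-5p tumours without tumour 1.

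On the log2 scale, with only the larger library set, the miR-183-5p differences turned to 0.21 (Gzmb), 0.10 (Nkg7), 0.20 (Cd8a), 0.19 (Cd8b1) and 0.20 (Klrd1). Without miR-142-5p tumour 3 and miR-183-5p tumour 3, a choice made after seeing the data, they were 0.21, 0.10, 0.20, 0.19 and 0.20, and Klrk1 in miR-142-5p tumours was 0.068. A pseudocount of 1 turned the Ncr1 to Cd8a difference in miR-142-5p tumours to -0.045. The number of correlated pairs, 5, became 1, not among the 5, with deviations from group means, 1 in the larger library set and 8 without those 2 tumours. With fewer tumours, or with values permuted only within groups, the tests differ by construction, and otherwise the cause was not tested.

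With each tumour left out in turn, these ranges included a change of sign. In miR-142-5p tumours they were -0.17 to 0.34 (Gzma), -0.20 to 0.49 (Gzmb), -0.40 to 0.84 (Prf1), -0.51 to 0.090 (Ifng) and -0.10 to 0.13 (Klrk1). In miR-183-5p tumours they were -0.51 to 0.28 (Gzmb), -1.04 to 0.032 (Prf1), -0.52 to 0.10 (Nkg7), -0.13 to 0.47 (Ifng), -0.28 to 0.20 (Cd8a), -0.21 to 0.19 (Cd8b1), -0.40 to 0.20 (Klrd1) and -0.99 to 0.42 (Ncr1). In miR-222-3p tumours they were -0.50 to 0.23 (Gzmb), -0.93 to 0.29 (Prf1), -0.069 to 0.34 (Nkg7), -0.045 to 0.88 (Ifng), -0.31 to 0.24 (Klrk1), -0.051 to 0.49 (Klrd1) and -1.26 to 0.39 (Ncr1). The Cd8a to Cd4 difference for miR-142-5p kept its sign but lay between -1.18 and -0.09. It lay between -0.31 and 0.38 for miR-183-5p and between -0.20 and 0.49 for miR-222-3p, and that of Ncr1 to Cd8a between -0.19 and 0.97 for miR-142-5p and between -0.67 and 0.48 for miR-183-5p. The median over the 10 genes lay between -0.45 and 0.15 for miR-183-5p and between -0.057 and 0.29 for miR-222-3p.

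The groups share replicate numbers, but same-numbered tumours did not deviate together (18 pairs, r from -0.44 to 0.22, mean -0.04). With the replicate number as a block 0 of 10 genes passed in each comparison, and in miR-142-5p tumours Gzmb became -0.10 and Klrk1 0.0035. Depth limits Ncr1 most, with 7 reads in its lowest library.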
